A study of Mus musculus with 17 samples.

Results

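The genes described here are 10 members of the IL-6 family cytokine pathway and its STAT3 feedback: the ligands Il6, Lif and Osm, the receptor chains Il6ra, Il6st, Lifr and Osmr, the transcription factor Stat3, and the STAT3-regulated genes Socs3 and Pim1. They were taken by symbol from a table of 47643 genes measured in the mouse diaphragm, and all 10 were found there. Of these, 7 passed the filter on low values (at least 1 TPM, transcripts per 1000000 transcripts, in at least 3 samples), which left 13305 genes for testing. Il6, Lif and Osm did not pass it and are described apart.

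RNA was sequenced from the diaphragm, the main muscle of breathing, of 17 male C57BL/6J mice aged 4 months. Control mice (n = 5) carried no tumor and received mock injections of PBS with BSA. Control + rFibcd1 mice (n = 5) carried no tumor and received rFibcd1, a recombinant C-terminal fragment of the myokine Fibcd1, into the peritoneal cavity. LLC mice (n = 3) had flank tumors that had grown from injected cells of the Lewis lung carcinoma line and received mock injections, and LLC + rFibcd1 mice (n = 4) carried the same tumors and received rFibcd1. All mice were wild type, so the groups differ by tumor and injection. The tumors lay away from the muscle that was sequenced, and they arose from a single transplanted cell line. The study asked whether rFibcd1 lessens the muscle wasting that these tumors cause, and IL-6 and LIF are among the factors known to drive such wasting.

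IL-6 family cytokines signal through receptor complexes that share gp130, the product of Il6st. IL-6 first binds its own receptor chain, Il6ra, whereas LIF pairs gp130 with the LIF receptor and oncostatin M, the product of Osm, pairs it with the oncostatin M receptor. The engaged receptors activate JAK kinases, which phosphorylate STAT3. STAT3 then enters the nucleus and induces Socs3, an inhibitor that binds gp130 and the JAKs and shuts the signal down, and Pim1, a serine/threonine kinase that promotes survival. STAT3 also binds its own promoter. In skeletal muscle this pathway takes part in regeneration, in exercise responses and in wasting. Transcript levels do not measure STAT3 phosphorylation, which was not part of these data.

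Because STAT3 recognizes palindromic DNA, the 250 bases upstream of the RefSeq start sites of the members (build GRCm38.p6) were searched for TTCNNNGAA, which reads the same on both strands. Of 11 start sites of 9 members, 1 had a match, in Socs3. By comparison, 2306 of 32851 such windows in the genome held the motif (7.02%). The match spans positions -154 to -146 relative to the RefSeq start site, at chr11:117969512-117969520 on the minus strand. It lies inside the Socs3 gene as annotated in GENCODE vM21, whose start on that strand is at chr11:117970047. It is shown since Socs3 is the feedback arm of the pathway, with the match in capitals and 10 bases on each side (chr11:117969502-117969530, minus strand):

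Socs3: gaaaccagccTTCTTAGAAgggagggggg

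A match is a description of letters and not evidence of binding. STAT3 sites of other spacing or farther away were not searched.

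In GENCODE vM21 (GRCm38), Il6 lies at chr5:30013114-30019981, Il6ra at chr3:89864059-89913196, Il6st at chr13:112464070-112510086 and Pim1 at chr17:29490753-29496112. Stat3 and Socs3 lie on chromosome 11, at chr11:100885098-100939540 and chr11:117966079-117970047. TPM were given per gene, so exons and transcript isoforms were not resolved.

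Levels can be compared between genes on the TPM scale, which is per length of transcript. Across all 17 mice, Il6st was the most abundant member with a mean of 33.6 TPM, followed by Stat3 with 23.9 TPM, and both kept these places in each of the 17 mice. Pim1 (11.7 TPM), Socs3 (9.35 TPM) and Lifr (8.71 TPM) came next and changed places between mice, since Pim1 was above Socs3 in 13 of 17 mice and Socs3 above Lifr in 11 of 17. Il6ra (5.64 TPM) and Osmr (4.80 TPM) were the least abundant receptor chains, and Il6ra was above Osmr in 11 of 17 mice. The receptor for oncostatin M was thus detected at a lower level than the LIF receptor in every mouse. The ligands lay far below, with means of 0.459 TPM for Lif, 0.281 TPM for Osm and 0.0829 TPM for Il6.

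The order differed between groups at 1 place among the receptors. In LLC + rFibcd1 mice, Osmr was above Il6ra in 4 of 4 mice, whereas in Control mice Il6ra was above Osmr in 4 of 5.

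**Figure D1:**
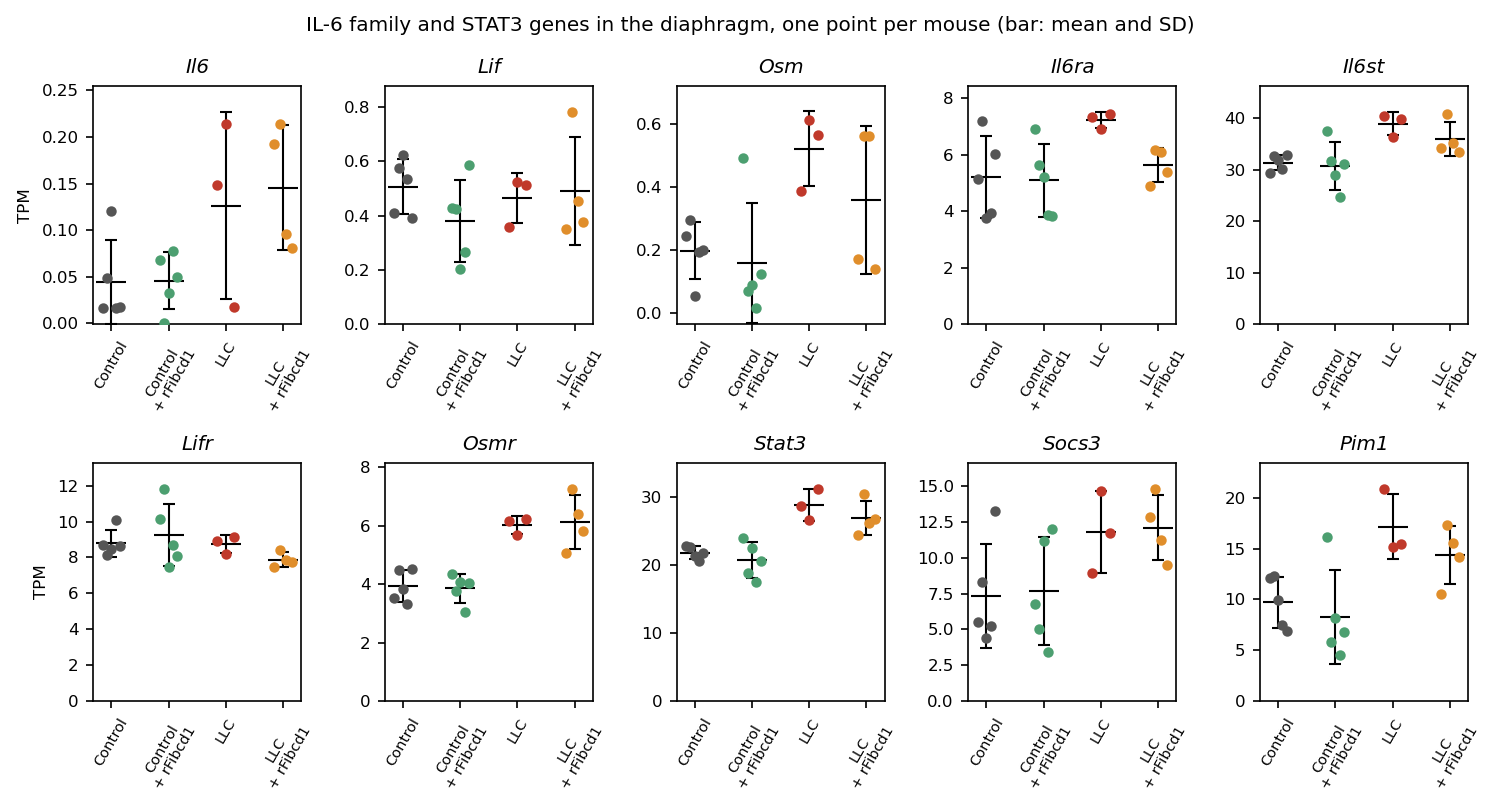
TPM of the 10 genes in each of the 17 mice, by group, with a separate TPM axis for each gene; black bars show the mean and SD. All 7 tumor-bearing mice lie above all 10 tumor-free mice for Osmr (at least 5.07 against at most 4.53 TPM) and Stat3, while the groups overlap for Lifr and Lif.

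The first comparison asked which members differed in the diaphragm of LLC mice from that of Control mice, without rFibcd1. Osmr, Stat3 and Il6st were higher in LLC mice, by 1.43-fold for Osmr, 1.30-fold for Stat3 and 1.23-fold for Il6st, and no member passed the test in the lower direction. Pim1, Il6ra and Socs3 had positive differences that did not pass, and Lifr differed little. That makes 3 of 7 tested members called in limma at an adjusted p of 0.05. Over all genes, 35.8% were called in this comparison, 29.7% higher and 6.02% lower (48.3% at an unadjusted p under 0.05), so the members' share is close to the background. The median gene also lay 0.16 higher on the log2 scale. Fold changes here are differences on the log2(TPM + 1) scale.

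Osmr, the chain that pairs with gp130 for oncostatin M and also serves the IL-31 receptor, was measured at 3.52, 4.50, 3.82, 3.31 and 4.53 TPM in Control mice. It was measured at 6.16, 5.68 and 6.24 TPM in LLC mice, so that the groups did not overlap. The log2 fold change was 0.52 ± 0.11 (SE), or 0.36 relative to the median gene, with an adjusted p of 0.0106 in limma. Osmr passed in 5 of 10 alternative settings, and with quantile normalization its value was 0.20 (adjusted p = 0.121).

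Stat3, the transcription factor itself, was at 22.8, 22.6, 21.4, 20.6 and 21.7 TPM in Control mice. The LLC mice had 28.6, 26.6 and 31.2 TPM, again without overlap. Its log2 fold change was 0.38 ± 0.091 (0.22 relative to the median gene; limma adjusted p = 0.0118), and it passed in 6 of 10 alternative settings. The annotated end of Stat3 shares 72 bp with Stat5a on the opposite strand, and Stat5a had an adjusted p of 0.952 in this comparison (limma).

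Il6st, which encodes the shared chain gp130, was at 29.5, 32.7, 31.9, 30.1 and 32.8 TPM in Control mice and at 40.4, 36.3 and 39.9 TPM in LLC mice. The groups did not overlap, and the log2 fold change was 0.30 ± 0.099 (limma adjusted p = 0.0312). Relative to the median gene the Il6st difference was 0.14, and after median-ratio scaling it was 0.15 with an adjusted p of 0.0906 (limma).

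Pim1 was at 12.1, 12.3, 9.90, 7.48 and 6.89 TPM in Control mice and at 20.9, 15.1 and 15.5 TPM in LLC mice. All LLC mice were above all Control mice, yet the wider spread left an adjusted p of 0.0508 (log2 fold change 0.78 ± 0.29, limma). An antisense gene, Gm26885, shares 488 exonic bp with Pim1. Whether strand was used in counting was not given, so reads from the shared bases cannot be told apart.

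Socs3 overlapped between the groups. It was at 5.52, 8.31, 4.44, 5.25 and 13.3 TPM in Control mice and at 8.97, 14.7 and 11.7 TPM in LLC mice, and the Control mouse with the highest value exceeded 2 of the 3 LLC mice. The log2 fold change was 0.68, with a 95% interval from -0.066 to 1.43 (limma adjusted p = 0.134). Il6ra, which binds IL-6 itself and shares 242 exonic bp with the antisense gene Gm42809, was at 3.78 to 7.21 TPM in Control mice and at 6.93 to 7.44 TPM in LLC mice. Its log2 fold change was 0.43 with an adjusted p of 0.0694 (limma).

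Lifr, the receptor chain for LIF, stood apart from the other receptors. It was at 8.16 to 10.1 TPM in Control mice and at 8.18 to 9.17 TPM in LLC mice, with a log2 fold change of -0.0054 on TPM as deposited (95% interval -0.23 to 0.22; limma adjusted p = 0.972), whereas with quantile normalization Lifr was called lower (-0.28, adjusted p = 0.0334).

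The ranges of Osmr, Stat3, Il6st, Pim1 and Osm in LLC mice lay wholly above those in Control mice. Over all tested genes, 33.6% showed this in the higher direction and 6.67% in the lower. Without LLC replicate 3, which left 2 LLC mice, 0 members were called and 24 of 13195 genes in all (0.182%). The log2 fold changes were then 0.49 for Osmr, 0.33 for Stat3 and 0.28 for Il6st, with adjusted p of 0.0694, 0.0731 and 0.116 (limma). Il6st also lost its call without LLC replicate 1 (adjusted p = 0.104) or without Control replicate 1 or 4. Without Control replicate 2, or without Control + rFibcd1 replicate 1, 5 members were called, the additions being Il6ra and Pim1, beside 37.6% and 39.5% of all genes.

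The second comparison set LLC + rFibcd1 mice against Control + rFibcd1 mice. It shares no mouse with the first, and so the tumor difference was measured a second time, in mice that received rFibcd1. Osmr and Stat3 were again higher and passed the test, while Il6st and Pim1 did not. Here 2 of 7 members were called, both higher, beside 8.06% of all genes called (7.02% higher, 1.04% lower; 28.5% at an unadjusted p under 0.05) and a median gene 0.11 higher.

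Osmr was at 4.37, 3.76, 4.09, 3.06 and 4.03 TPM in Control + rFibcd1 mice and at 5.07, 7.26, 6.41 and 5.81 TPM in LLC + rFibcd1 mice. The groups did not overlap. The log2 fold change was 0.55 ± 0.10 (0.44 relative to the median gene; limma adjusted p = 0.0066).

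Stat3 was at 24.0, 18.8, 22.5, 17.5 and 20.6 TPM in Control + rFibcd1 mice and at 24.3, 30.4, 26.2 and 26.8 TPM in LLC + rFibcd1 mice. The groups touched without overlapping, and the log2 fold change was 0.37 ± 0.083 (0.25 relative to the median gene; limma adjusted p = 0.0159). With quantile normalization the adjusted p of Stat3 was 0.0509 (limma), and Osmr passed in 9 and Stat3 in 7 of 10 alternative settings. Without LLC + rFibcd1 replicate 2, the adjusted p for Stat3 was 0.0607 (limma) and Osmr alone was called. Ranges that lay wholly above those of the tumor-free group were found for 7.43% of all genes (wholly below, 1.48%) in this comparison and for Osmr and Stat3 among the tested members. The interaction of tumor and rFibcd1 had 95% intervals from -0.29 to 0.36 for Osmr and from -0.28 to 0.25 for Stat3 on the log2 scale.

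Pim1 was at 16.1, 5.77, 8.15, 4.49 and 6.80 TPM in Control + rFibcd1 mice and at 10.5, 17.3, 15.5 and 14.1 TPM in LLC + rFibcd1 mice. Control + rFibcd1 replicate 1 held the value of 16.1 TPM, above 3 of the 4 tumor-bearing mice. The log2 fold change of Pim1 was 0.83 with an adjusted p of 0.0681 (limma). Without that mouse it was 1.08 with an adjusted p of 0.0051, Il6st reached an adjusted p of 0.0203 (from 0.125, log2 fold change 0.23, with all mice), and 4 members were called in limma, while the share of all genes called rose from 8.06% to 21.8%.

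Socs3 was at 6.77, 5.01, 11.1, 3.41 and 12.04 TPM in Control + rFibcd1 mice and at 12.8, 14.8, 11.2 and 9.50 TPM in LLC + rFibcd1 mice (log2 fold change 0.70, limma adjusted p = 0.172). The receptor chains Lifr (-0.19, adjusted p = 0.21) and Il6ra (0.14, adjusted p = 0.581) did not pass in limma either. With quantile normalization, the value of Lifr was -0.34 with an adjusted p of 0.0462 (limma) and that of Il6ra was -0.016.

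**Figure D2:**
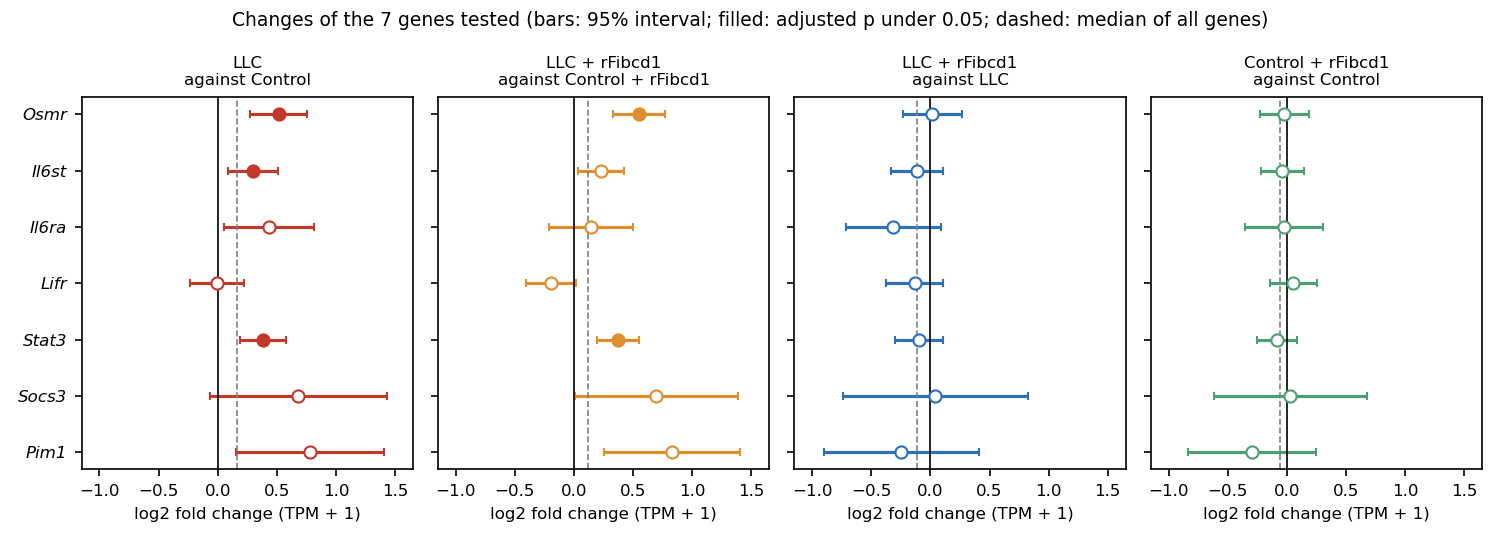
Log2 fold change on the log2(TPM + 1) scale (x axis) of the 7 tested members in 4 comparisons, with 95% intervals from limma; filled points passed an adjusted p of 0.05, open points did not, and the dashed line is the median of all 13305 genes. Osmr and Stat3 are filled in both tumor comparisons (0.52 and 0.55 for Osmr, 0.38 and 0.37 for Stat3), and all points for rFibcd1 against mock are open.

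All 7 tumor-bearing mice were then set against all 10 tumor-free mice, weighting each group by its size. This comparison holds the mice of both comparisons above and is not a further replicate of them. Its median gene lay 0.13 higher on the log2 scale. Osmr, Stat3, Pim1, Il6st and Socs3 were higher, so that 5 of 7 members were called beside 44.8% of all genes (38.8% higher, 5.98% lower; 53.5% at an unadjusted p under 0.05). The log2 fold changes were 0.53 ± 0.076 for Osmr (limma adjusted p = 0.000539) and 0.37 ± 0.061 for Stat3 (limma adjusted p = 0.00114). Pim1 (0.79 ± 0.20, adjusted p = 0.00734), Il6st (0.25 ± 0.067, adjusted p = 0.00878) and Socs3 (0.69 ± 0.24, adjusted p = 0.0284) also passed in limma.

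The 10 tumor-free mice spanned 3.06 to 4.53 TPM for Osmr and the 7 tumor-bearing mice 5.07 to 7.26 TPM. Stat3 spanned 17.5 to 24.0 TPM without and 24.3 to 31.2 TPM with a tumor. Both genes thus ordered the 17 mice by tumor, a property of 1.74% of all genes in the higher direction. The gap for Stat3 was narrow and was set by Control + rFibcd1 replicate 1, without which the highest tumor-free value was 22.8 TPM.

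Socs3 did not order the mice in this way, with 3.41 to 13.3 TPM in tumor-free and 8.97 to 14.8 TPM in tumor-bearing mice. Its call was lost without LLC replicate 2 (adjusted p = 0.054), LLC replicate 3 (adjusted p = 0.0535) or LLC + rFibcd1 replicate 2 (adjusted p = 0.0567) in limma. It passed in 3 of 8 alternative settings and was lost after median-ratio scaling (adjusted p = 0.0689), with quantile normalization (0.0983), after rescaling without mitochondrially encoded genes (0.0522) and with the cell type scores described further on. Il6ra had a log2 fold change of 0.27 (limma adjusted p = 0.0847; 0.032 without Control replicate 2 and 0.0346 without Control + rFibcd1 replicate 1). Lifr had -0.11 (adjusted p = 0.231 in limma), and Lifr was called lower after median-ratio scaling (-0.23, adjusted p = 0.0167), with quantile normalization (-0.30, adjusted p = 0.00326) and after rescaling without mitochondrially encoded genes (-0.19, adjusted p = 0.0423).

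The receptor chains for LIF and oncostatin M can be set beside each other within a mouse, though a difference between them was not tested. As a description chosen after the separation of Osmr was seen, the ratio of Osmr to Lifr TPM was 0.327 to 0.552 in Control mice and 0.318 to 0.546 in Control + rFibcd1 mice. It was 0.680 to 0.694 in LLC mice and 0.677 to 0.861 in LLC + rFibcd1 mice. A factor common to all genes of a library cancels in this ratio, which was higher in each of the 7 tumor-bearing mice than in any of the 10 tumor-free mice. Osmr and Lifr lie next to each other on chromosome 15 (6813577 to 6874969 and 7090614 to 7197489, GRCm38).

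The ligand transcripts were low. Il6 corresponded to 0 to 13 reads a library, as estimated from the exon length, Osm to about 1 to 34.9 reads and Lif to 21.9 to 84.9 reads. A total of 6 exact permutation tests were made on their mean TPM and that of Lif (two-sided, over mice).

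Osm, whose product is made mainly by cells of the myeloid and T cell lineages, was at 0.245, 0.297, 0.0551, 0.194 and 0.200 TPM in Control mice and at 0.388, 0.614 and 0.564 TPM in LLC mice. The groups did not overlap (exact permutation p = 0.0179, the smallest that 56 splits allow). In Control + rFibcd1 mice it was at 0.492, 0.0691, 0.0881, 0.0165 and 0.125 TPM, and in LLC + rFibcd1 mice at 0.172, 0.562, 0.564 and 0.138 TPM, with overlap. Over all mice Osm was 0.178 ± 0.142 (SD, n = 10) without and 0.429 ± 0.200 TPM (SD, n = 7) with a tumor (exact permutation p = 0.0115). Fitted in limma with all genes and no filter, Osm had an adjusted p of 0.0713 in LLC against Control mice and of 0.0324 over all mice.

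Il6 was at 0.0164 to 0.120 TPM in Control mice and at 0.149, 0.213 and 0.0170 TPM in LLC mice, so LLC replicate 3 lay within the Control range (exact permutation p = 0.161; 0.0476 without that mouse). It was at 0 to 0.0771 TPM in Control + rFibcd1 mice and at 0.0807 to 0.214 TPM in LLC + rFibcd1 mice. Over all mice it was 0.0448 ± 0.0363 TPM (SD, n = 10) without and 0.137 ± 0.0755 TPM (SD, n = 7) with a tumor (exact permutation p = 0.00447; limma without filter, adjusted p = 0.0247). These values rest on a handful of reads a mouse.

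Lif, the third ligand, was at 0.202 to 0.624 TPM without and at 0.350 to 0.780 TPM with a tumor, with overlap in each comparison (exact permutation p = 0.622 over all mice, n = 7 and n = 10). Osm and Lif are neighbors on chromosome 11 (4236420 to 4241026 and 4257557 to 4272514, GRCm38).

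The next comparison asked whether rFibcd1 changed the members in tumor-bearing mice. Between LLC + rFibcd1 and LLC mice, 0 of 7 members passed the test in limma and 0 had an unadjusted p under 0.05. Dunn's test also called 0, but it called 0 of 13305 genes in every comparison it was run on, the tumor comparisons included. Over all genes, 0.113% were called (0.0601% higher, 0.0526% lower) and 22.7% had an unadjusted p under 0.05. For Osmr the log2 fold change was 0.015 with a 95% interval from -0.24 to 0.27, which corresponds to 0.849 to 1.20-fold. For Stat3 it was -0.095 (-0.30 to 0.11, 0.814 to 1.08-fold), or 0.0055 after median-ratio scaling. For Il6st it was -0.11 (-0.33 to 0.11). The median gene lay at -0.11 in this comparison.

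Socs3 and Pim1 were less tightly bounded. Socs3 had a log2 fold change of 0.042 with an interval from -0.74 to 0.83, and Pim1 had -0.25 with an interval from -0.90 to 0.41, which allow 0.598 to 1.77-fold and 0.536 to 1.33-fold. Lifr had -0.13 (-0.37 to 0.11), or 0.062 with quantile normalization. Il6ra had the lowest value, -0.31 (-0.71 to 0.086; adjusted p = 0.289 in limma), with 4.89, 6.19, 6.09 and 5.39 TPM in LLC + rFibcd1 mice against 7.33, 6.93 and 7.44 TPM in LLC mice. These ranges did not overlap, as was the case in the lower direction for 9.3% of all genes (5.26% in the higher direction).

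In tumor-free mice, 0 of 7 members passed between Control + rFibcd1 and Control in limma, and 0 of 13305 genes did (584 genes, 4.39%, at an unadjusted p under 0.05). Dunn's test called 0 of 13305 genes here too, as in every comparison it was run on. The log2 fold changes lay between -0.30 for Pim1 (95% interval -0.84 to 0.25) and 0.052 for Lifr (-0.15 to 0.25). No member had ranges that did not overlap here, beside 0.00752% of all genes in the higher and 0.804% in the lower direction. The interaction, which tests whether the tumor difference itself changed with rFibcd1, also called 0 of 7 members and 0 genes in limma (1142 genes, 8.58%, at an unadjusted p under 0.05), with values between -0.29 for Il6ra (95% interval -0.81 to 0.23) and 0.051 for Pim1 (-0.80 to 0.90).

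Other genes of the pathway were grouped in 3 lists. These were chosen with earlier results of these data known, so their counts beside all genes are a description and not a test. Of the 13 other ligands and receptors of the family, 8 were tested, of which 3 were higher and 1 was lower in LLC than in Control mice, beside 29.7% and 6.02% of all genes. Il27ra, a receptor chain for IL-27 (1.34 ± 0.34, adjusted p = 0.0128), Ebi3, a subunit of IL-27 (1.05 ± 0.29, adjusted p = 0.0171), and Clcf1, a ligand of the CNTF receptor (0.99 ± 0.34, adjusted p = 0.0334), rose in limma. Cntfr, the CNTF receptor, fell by 0.95 ± 0.28 (adjusted p = 0.0202) from 16.96 to 40.8 TPM in Control mice to 10.4 to 15.2 TPM in LLC mice. The same gene fell by 1.10 ± 0.26 (limma adjusted p = 0.0193) in LLC + rFibcd1 against Control + rFibcd1 mice, where it was the only one of the 8 called, beside 8.06% of all genes (1.04% lower). Over all mice 4 of the 8 were higher, beside 38.8% of all genes, with the ligand Cntf added at 0.33 (limma adjusted p = 0.0478), and 1 lower. Cntf passed in 1 of 8 alternative settings and in 5 of 17 fits that left out a mouse. Over the alternative settings 1 to 5 genes of this list were called, beside 4.61 to 44.1% of all genes.

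The calls of all 3 lists in LLC against Control mice fell to 0 genes without LLC replicate 3, with either cell type score and by Dunn's test. Dunn's test called 0 of all 13305 genes there. With the B cell score the values there were 0.37 for Il27ra, 0.24 for Ebi3 and 0.12 for Clcf1, and Clcf1 passed in 4 of 10 alternative settings.

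The list of JAK-STAT transducers and inhibitors had 25 genes tested, of which 11 were higher and 0 lower in LLC than in Control mice, beside 29.7% and 6.02% of all genes. The highest were Ptpn6, a phosphatase of blood cells (2.08 ± 0.63, adjusted p = 0.0217), Stat4 (1.03 ± 0.34, adjusted p = 0.0323), the kinase Pim2 (0.96 ± 0.26, adjusted p = 0.0152) and Jak3, which serves the common gamma chain receptors of lymphocytes (0.84 ± 0.14, adjusted p = 0.00734) in limma. Jak1, the main kinase at gp130, rose by 0.29 (adjusted p = 0.0433), a call kept in 2 of 10 alternative settings and in 8 of 17 fits that left out a mouse. With the B cell score the values were 0.20 for Ptpn6, 0.10 for Stat4, 0.24 for Pim2, 0.48 for Jak3 and 0.051 for Jak1. Jak2 (-0.023, adjusted p = 0.875) and the inhibitor Socs1 (0.40, adjusted p = 0.348) did not pass in limma.

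In LLC + rFibcd1 against Control + rFibcd1 mice, 1 of the 25 was called, beside 8.06% of all genes. This was Jak3, with 8.43 to 12.5 against 14.1 to 23.3 TPM (0.71 ± 0.13, limma adjusted p = 0.00545). With a mouse left out, 1 to 7 of the list were called, beside 3.59 to 21.8% of all genes. Jak1 (0.075, adjusted p = 0.628), Socs1 (0.38, adjusted p = 0.411) and Jak2 (-0.28, adjusted p = 0.0763) did not pass in limma. The value for Jak1 turned negative after median-ratio scaling. Over all mice 12 of the 25 were higher, beside 38.8% of all genes. Ptpn6 (1.44), Jak3 (0.77), Stat4 (0.75) and Pim2 (0.65) led them. Over 8 alternative settings 1 to 12 of the list were called, beside 4.61 to 44.1% of all genes. The lowest values there were 0.15 for Ptpn6, 0.52 for Jak3, 0.11 for Stat4 and 0.16 for Pim2.

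The list of 20 STAT3 target genes was tested in full, and 10 were higher and 1 lower in LLC than in Control mice, beside 29.7% and 6.02% of all genes. Saa3, an acute phase protein, was highest (2.54 ± 0.58, adjusted p = 0.0112), followed by the protease inhibitor Serpina3n (1.46 ± 0.30, adjusted p = 0.00996), the transcription factor Batf (1.14 ± 0.35, adjusted p = 0.0235) and the NF-kB cofactor Bcl3 (1.12 ± 0.29, adjusted p = 0.0136) in limma. Saa3 was at 3.73 to 21.4 TPM in Control mice, 35.4 to 74.0 TPM in LLC mice and 11.6 to 86.4 TPM in Control + rFibcd1 mice, which therefore overlapped with the LLC mice. In LLC + rFibcd1 mice Saa3 was at 12.9 to 43.1 TPM, with a value of -0.57 against Control + rFibcd1 (limma adjusted p = 0.48), and over all mice it did not pass (0.89, adjusted p = 0.0748). Serpina3n was at 7.48 to 12.7 TPM in Control and 25.5 to 28.7 TPM in LLC mice. Saa3, Serpina3n, Batf and Bcl3 each passed in 6 of 10 alternative settings in LLC against Control mice. Their lowest log2 fold changes over these settings were 1.504 for Saa3, 0.916 for Serpina3n, 0.183 for Batf and 0.492 for Bcl3.

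In LLC + rFibcd1 against Control + rFibcd1 mice, 3 of the 20 were called, all higher, beside 7.02% of all genes called higher. With a mouse left out, 2 to 11 were called, beside 3.59 to 21.8% of all genes. Il4ra, the IL-4 receptor chain, rose by 1.04 ± 0.17 (limma adjusted p = 0.00316), from 4.14 to 7.71 TPM to 9.17 to 16.01 TPM, and Bcl3 rose by 0.97 ± 0.26 (limma adjusted p = 0.036). Il4ra passed in 9 of 10 alternative settings, whereas Bcl3 passed in 2 of 10 and in 11 of 17 fits that left out a mouse. Over all mice 10 of the 20 were higher, beside 38.8% of all genes, with Serpina3n (1.16), Il4ra (1.03), Bcl3 (1.03) and Batf (0.85) in the lead. Over 8 alternative settings 2 to 10 of the list were called, beside 4.61 to 44.1% of all genes. Il4ra passed in 8 of these, Serpina3n and Bcl3 in 7 each and Batf in 5, where its lowest value was 0.20.

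Vegfa, the angiogenic growth factor, was the third and differed from the rest of the list. It was at 144.4 to 175 TPM in Control, 128 to 132 TPM in LLC, 127 to 148 TPM in Control + rFibcd1 and 149 to 219 TPM in LLC + rFibcd1 mice. Vegfa fell by 0.29 ± 0.10 in LLC against Control mice (limma adjusted p = 0.0374) and rose by 0.44 ± 0.092 in LLC + rFibcd1 against Control + rFibcd1 mice (adjusted p = 0.0109), the latter with an adjusted p of 0.0897 after median-ratio scaling. The fall passed in 5 of 10 alternative settings and in 11 of 17 fits that left out a mouse, the rise in 6 of 10 and in 17 of 17. The interaction for Vegfa was 0.73 ± 0.14 but did not pass over all genes (limma adjusted p = 0.0834), nor did LLC + rFibcd1 against LLC (0.50, adjusted p = 0.0881).

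The medians of these lists can be read beside that of all genes, as a description only, since members and lists were chosen with earlier results known. In LLC against Control mice the median log2 fold change was 0.15 for the other ligands and receptors, 0.20 for the JAK-STAT genes and 0.53 for the STAT3 target genes, beside 0.43 for the 7 members and 0.16 for all genes. In LLC + rFibcd1 against Control + rFibcd1 mice these medians were 0.21, 0.18, 0.41, 0.37 and 0.11. Between LLC + rFibcd1 and LLC mice, 0 genes of any of the 3 lists were called in limma (2 of 8, 6 of 25 and 4 of 20 at an unadjusted p under 0.05, beside 22.7% of all genes).

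**Figure D3:**
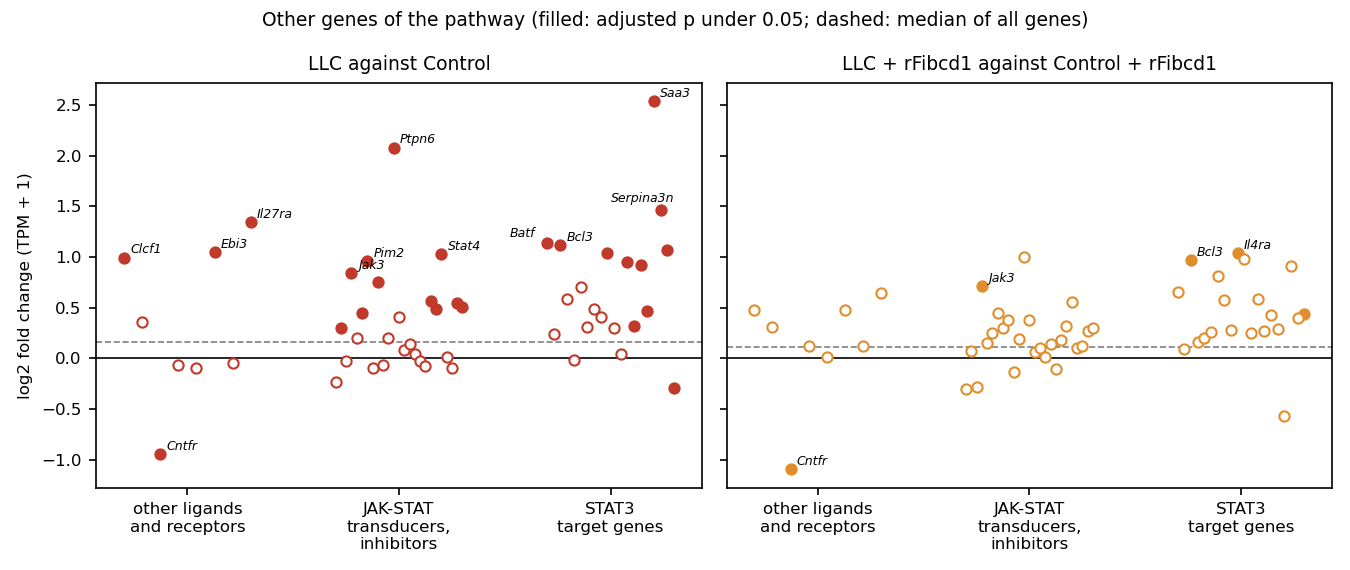
Log2 fold change on the log2(TPM + 1) scale (y axis) of each tested gene of the 3 pathway lists, in the 2 tumor comparisons that share no mouse; filled points passed an adjusted p of 0.05 in limma and the dashed line is the median of all genes. In LLC against Control mice 26 points are filled, and in LLC + rFibcd1 against Control + rFibcd1 mice 5 are, with Cntfr at the bottom in both panels. Both counts changed with the mouse left out, as given in the text.

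The diaphragm samples held other cells beside muscle fibers, and the markers of some of these differed with the tumor in 1 or both comparisons. In bulk RNA, more cells of a type and more RNA per cell cannot be told apart. The tissue label held, since all 10 myofiber markers were found at a summed 45745 to 59634 TPM. The 9 macrophage and monocyte markers in the table summed to 265 to 560 TPM in Control, 210 to 1678 TPM in Control + rFibcd1, 876 to 985 TPM in LLC and 377 to 966 TPM in LLC + rFibcd1 mice, with none at 0. The 10 B cell markers summed to 2.80 to 118, 4.05 to 166, 271 to 349 and 21.1 to 338 TPM in the same order. The 10 neutrophil markers summed to 1.95 to 14.6, 2.97 to 79.8, 45.4 to 107 and 55.6 to 211 TPM, while the defining neutrophil genes Ly6g, Ngp and Ltf were under 0.1 TPM in Control mice.

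All 10 B cell and all 10 T cell markers were called higher in LLC against Control mice, and 0 of either list in LLC + rFibcd1 against Control + rFibcd1 mice (limma), beside 29.7% and 7.02% of all genes called higher. Of the 10 endothelial markers, 3 were called higher in the first and 8 in the second. The medians of the endothelial markers were 0.13 and 0.45. Of the other lists in LLC against Control mice, 3 of 6 plasma cell, 2 of 9 fibroblast, 1 of 8 mesothelial and 0 of 8 adipocyte markers were called higher, and 4 of 10 myofiber markers were called lower, beside 6.02% of all genes. Of the macrophage and monocyte markers, 4 of 9 were called higher there and 0 in LLC + rFibcd1 against Control + rFibcd1 mice, and all 5 neutrophil markers that passed the filter were called higher in both. These 5 passed a filter that markers raised in 1 group can meet through that group alone. Satellite cell markers summed to 11.1 to 16.1 TPM in all mice, and 0 of the 3 tested were called.

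Individual mice bear on how the members follow these markers. LLC + rFibcd1 replicates 1 and 4 had macrophage and monocyte sums of 425 and 377 TPM, within the Control range, and B cell sums of 21.1 and 26.4 TPM. Their Osmr (5.07 and 5.81 TPM) and Stat3 (24.3 and 26.8 TPM) lay above those of every tumor-free mouse. The same mice had neutrophil sums of 90.9 and 55.6 TPM, above every Control mouse, and endothelial sums of 347 and 350.2 TPM, above every tumor-free mouse, and the part of these in the values was not tested. Control + rFibcd1 replicate 1 stood apart with the highest macrophage and monocyte sum of all mice, 1678 TPM. It had 4.37 TPM of Osmr, within the range of the other tumor-free mice, but the highest tumor-free values of Stat3, Pim1, Il6st and Osm.

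With the macrophage and monocyte score as a covariate, Osmr and Stat3 were called in LLC + rFibcd1 against Control + rFibcd1 mice and over all mice, as they were with a B cell score. In the former comparison 5.76% and 4.76% of all genes were called with these scores. Of the markers in the lists, 0 of 9 and 0 of 10 were called there, so calls kept there do not settle the part of cell content. In LLC against Control mice 0 members were called with either score, as were only 4 and 7 of 13305 genes (0.0301% with the macrophage and monocyte score, 0.0526% with the B cell score). There the log2 fold changes with the macrophage and monocyte score were 0.36 for Osmr, 0.25 for Stat3, 0.078 for Il6st and 0.23 for Pim1, and with the B cell score 0.39, 0.26, 0.16 and 0.13. Over all mice, the log2 fold change of Osmr was then 0.43 with the macrophage and monocyte score (limma adjusted p = 0.0102) and 0.45 with the B cell score (0.0186), and that of Stat3 was 0.28 with each (0.0251 and 0.0416). Pim1, Il6st and Socs3 were no longer called over all mice with either covariate, while the share of all genes called fell from 44.8% to 7.34% and 4.61%. Their values over all mice were 0.41, 0.10 and 0.60 with the macrophage and monocyte score and 0.34, 0.16 and 0.76 with the B cell score. The part of macrophages, neutrophils and endothelium in the differences was not otherwise tested.

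**Figure D4:**
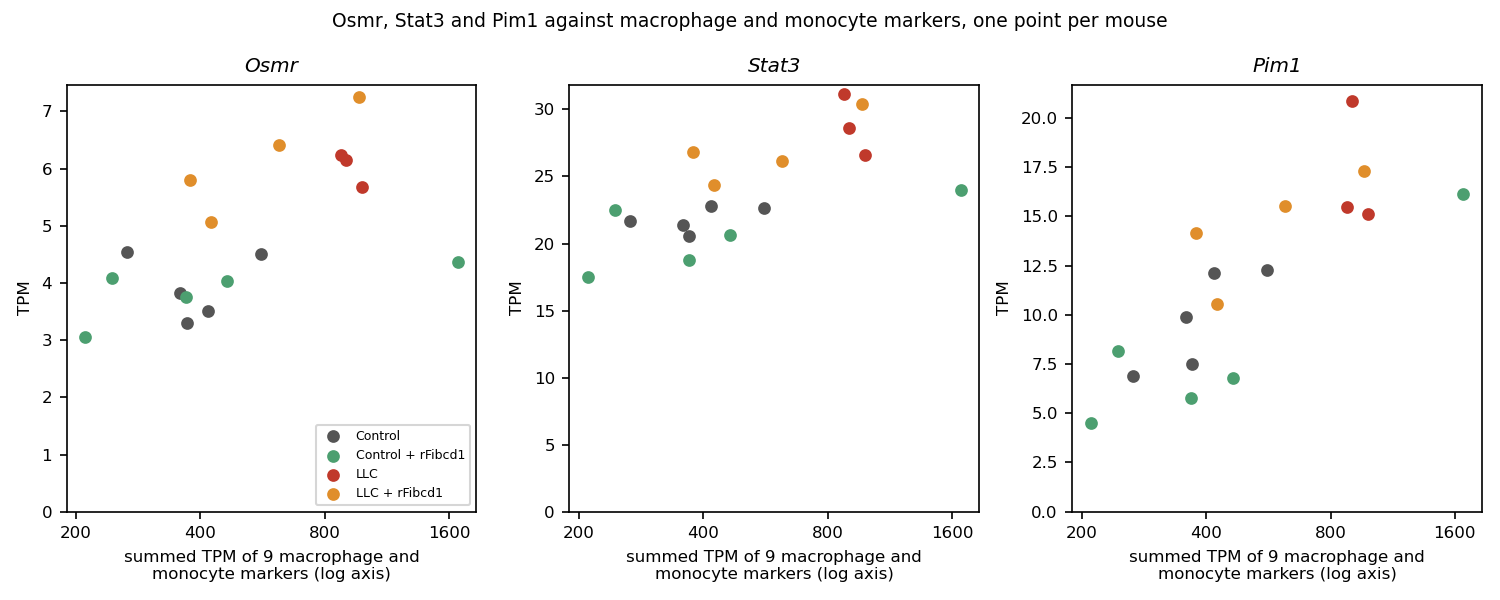
TPM of Osmr, Stat3 and Pim1 (y axes) against the summed TPM of 9 macrophage and monocyte markers (x axis, log scale), 1 point for each of the 17 mice, colored by group. For Osmr and Stat3 the tumor-bearing mice lie above the tumor-free mice at like marker sums. Control + rFibcd1 replicate 1, at 1678 TPM of markers, lies within the range of the other tumor-free mice for Osmr (4.37 TPM) and high for Pim1 (16.1 TPM).

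Among the members, Osmr and Stat3 varied together most closely over the 17 mice (Pearson r = 0.92), followed by Stat3 and Pim1 (r = 0.90) and by Il6st and Stat3 (r = 0.87). Lifr had the lowest values, from -0.52 with Socs3 to 0.074 with Il6ra. These correlations include the difference between groups, and the values of a mouse share one library, so they describe the samples only. The genes of the whole table that followed each member most closely were Tmem184b for Osmr (r = 0.96), Dhx37 for Stat3 (0.96), Pfkp for Il6st (0.96), Tbc1d31 for Pim1 (0.94), Scamp3 for Il6ra (0.88), Abra for Socs3 (0.86) and Khk for Lifr (0.86).

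To ask whether feedback and input followed each other within groups, Socs3 was compared with Stat3, Osmr and Pim1 after subtraction of group means, in 10 tumor-free and 7 tumor-bearing mice (6 relations). For Osmr and Socs3 in tumor-free mice r was 0.77, which did not pass after adjustment (permutation p = 0.0111, adjusted p = 0.0669), and rho was 0.79 (permutation p = 0.00831, adjusted p = 0.0499). Without the 2 mice farthest from the median of Osmr, r was 0.65. The share of all genes with so strong a relation to Socs3 in these mice was not computed. In tumor-bearing mice r was 0.11 for the same genes (permutation p = 0.825, adjusted p = 0.905; rho = -0.11, permutation p = 0.84).

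Stat3 and Socs3 had r = 0.52 in tumor-free mice (permutation p = 0.122, adjusted p = 0.365; rho = 0.60, permutation p = 0.0745) and r = 0.052 in tumor-bearing mice (permutation p = 0.905; rho = -0.14, permutation p = 0.783). Pim1 and Socs3, both known targets of STAT3, had r = 0.13 (permutation p = 0.725; rho = 0.24, permutation p = 0.514) and -0.30 (permutation p = 0.513; rho = -0.54, permutation p = 0.236), and after leaving out the 2 farthest mice these r values were -0.12 and 0.063.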

How the data were processed

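RNA of 17 diaphragms was sequenced, and the deposited values are TPM per gene. Per the study's methods, the authors trimmed paired reads, aligned them to GRCm38 (mm10) and computed TPM with CLC Genomics Workbench. The labels name a stranded library kit and the methods an unstranded one, and whether counting used strand was not given in the sources used here. Steps between low TPM values gave an estimated 50.6 to 54.5 reads, in units of 1000000, a library (82.6 to 85.5% of low values were whole reads within 0.02).

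From the TPM, log2(TPM + 1) was fitted for 4 groups at once with limma 3.58.1 (R 4.3.3, trend, two-sided, Benjamini-Hochberg over 13305 genes with at least 1 TPM in 3 samples). The authors used Kruskal-Wallis and Dunn's tests, and Dunn's test was an alternative here beside pseudocount, filter, scaling, covariates, replicate block and leaving out each mouse. Members under the filter had exact permutation tests with scipy 1.17.1. TPM are shares, so a fall in the mitochondrial share (47.1% in Control, 42.9% in LLC mice) raises other genes, and the median gene is given beside each tumor comparison. Named pathway genes are the 4 largest called changes in each direction and list, plus Socs1, Jak1 and Jak2, and 1 gene that the rule names is not reported here. The fit was tested on simulated data. Gene positions are from GENCODE vM21 (GRCm38) and start sites from RefSeq, whose table holds no window for Osm. The marker Itgam was not analysed here. The members and lists were chosen with earlier results of these data known.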

Additional observations from a re-analysis of the deposited data

Results flagged for a closer look

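Lifr in Control replicate 4 was 10.1 TPM, whereas the other 4 Control mice had 8.16 to 8.67 TPM, and the gap to the nearest mouse exceeded the 95% critical value of Dixon's test. Osm in Control + rFibcd1 replicate 1 was 0.492 TPM against 0.0165 to 0.125 TPM in the other 4 mice of its group, by the same criterion. Of 30 sets of a gene and a group examined in this way, chance marks about 1 in 20. Control + rFibcd1 replicate 1 also had the highest macrophage and monocyte marker sum (1678 TPM), and the part of that in its Osm value was not tested.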

How the results depend on the processing

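With 3 to 5 mice a group, both the calls and the fold changes moved with the setting, the latter in LLC against Control mice from 0.20 to 0.61 for Osmr, 0.078 to 0.31 for Il6st and 0.13 to 0.84 for Pim1. Of the log2 fold changes of the 7 tested members in 4 comparisons, of Lifr and Pim1 in Control + rFibcd1 against Control mice and of Il6ra and Pim1 in the interaction, under 8 or 10 alternatives other than leaving out a mouse, 259 kept direction and side of the threshold, 29 kept direction but no longer passed, 6 newly passed and 8 changed direction, and the cause was not tested. In LLC against Control mice (3 members called), 0 members were called with the B cell score, with the macrophage and monocyte score and by Dunn's test, which called 0 of 13305 genes. In LLC + rFibcd1 against Control + rFibcd1 mice (2 called), 1 was called when only these groups entered the fit (2.28% of all genes) and 0 by Dunn's test. With quantile normalization the number called was 2 in each of these comparisons, beside 35.2% and 3.51% of all genes, but these were Stat3 and Lifr in the first and Osmr and Lifr in the second. Over all mice (5 called), 2 were called with either score, beside 4.61% (B cell) and 7.34% of all genes. After median-ratio scaling the r of Osmr and Socs3 in tumor-free mice was 0.82 (permutation, adjusted p = 0.0343).

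Same-numbered mice of different groups did not vary together (22 pairs, median r -0.061, 4 over 0.1), so the replicate numbers name the mice only. With the replicate block, 0 members and 5 genes were called in LLC against Control mice, while 2 were called in LLC + rFibcd1 against Control + rFibcd1 mice (3.7% of all genes), 5 over all mice (28.4%) and 0 in the other comparisons.

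Leaving out each mouse in turn gave 0 to 5 members called in LLC against Control mice (0.182 to 39.5% of all genes), 1 to 4 in LLC + rFibcd1 against Control + rFibcd1 mice (3.59 to 21.8%) and 4 to 6 over all mice (31.4 to 49.8%). In LLC against Control mice the log2 fold change ranged from -0.036 to 0.040 for Lifr and from -0.10 to 0.062 for Jak2. Between LLC + rFibcd1 and LLC mice it ranged from -0.059 to 0.089 for Osmr and from -0.13 to 0.20 for Socs3. It ranged from -0.032 to 0.12 for Lifr in Control + rFibcd1 against Control mice and from -0.11 to 0.30 for the interaction of Pim1. The difference in mean TPM between LLC and Control mice ranged from 0.0389 to 0.137 for Il6 and from -0.0710 to 0.0110 for Lif, and over all mice from -0.0145 to 0.0573 for Lif.

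Changes of direction otherwise concerned values that did not pass the test. In LLC + rFibcd1 against Control + rFibcd1 mice, Jak1 was -0.041 after median-ratio scaling, -0.038 with quantile normalization, -0.041 with the B cell score and -0.021 with the macrophage and monocyte score and Il6ra was -0.016 with quantile normalization. With the B cell score, Jak1 was -0.0042 over all mice. Between LLC + rFibcd1 and LLC mice, Stat3 was 0.0055 after median-ratio scaling and 0.0050 with quantile normalization, and Lifr was 0.062 with the latter. There, Socs3 was -0.022 and Pim1 0.20 with the B cell score, and Pim1 was 0.084 and Il6st 0.019 with the macrophage and monocyte score.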
